A study of Mus musculus with 18 samples.

Results

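The comparison set the activator form of Gli2 against its repressor form in resting CD4 T cells. Its members were chosen by array title: 3 arrays of Unstimulated Gli2A Tg cells and 3 of Unstimulated Gli2R Tg cells, 6 of the 18 arrays of the series. The cells were CD4 T cells taken with magnetic beads from spleens of C57BL/6 mice aged 9 to 15 weeks. Gli2A Tg mice carried a transgene named for the activator form and Gli2R Tg mice one named for the repressor form, and nontransgenic wild-type (WT) mice gave 3 further resting arrays that are set beside them. Stimulated arrays, 3 of each genotype, came from cells held for 6 h with antibodies against CD3 and CD28. The labels name neither the promoter of the transgenes nor the number of founder lines, and they do not say whether the replicates of a group were separate mice, so p-values measure only the spread between these samples. Each array reads a bulk population, in which fewer cells of a type and less RNA per cell cannot be told apart.

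Hedgehog signals end on Gli2, a DNA-binding protein with zinc fingers. Without ligand, the receptor Ptch1 holds Smo inactive and Gli proteins are kept out of the nucleus or cut to forms that repress; with ligand, Smo is released and full-length Gli proteins switch on target genes, among them Ptch1 itself and Gli1. In the T lineage Hedgehog ligands come from the stroma of thymus and spleen, and the pathway has been studied for its effects on thymocyte maturation, on signalling by the T cell receptor and on helper T cell differentiation.

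Levels are given on the log2 scale of the deposited intensity plus 16, after quantile normalization, with the brightest probe set that names 1 gene taken for each of 18193 genes. The floor of this scale is 4, and levels close to it depend on the added constant. A difference is the mean of the 3 Gli2A Tg arrays minus the mean of the 3 Gli2R Tg arrays, given with its standard error (SE), and a gene was called when its limma p-value, adjusted by Benjamini and Hochberg over all genes, was under 0.05. Both SE and p-value take their spread from the limma fit of all 18 arrays, not from these 6 alone. Levels of different genes are not compared, since each probe set has its own response.

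The median deposited intensity of the 6 arrays lay between 66.7 and 72.3, and precision is limited by having 3 arrays a group. Gli2A Tg replicate 3 stood apart on the first principal component of the 9 resting arrays, which held 25.1% of the variance, with a score of -59.69 where the next lowest array had -13.04. As a sign of RNA integrity, beta-actin probes at the 3' end gave a signal over that of 5' probes of 1.26 to 1.71 in Gli2A Tg and 1.31 to 1.47 in Gli2R Tg arrays, and the same ratio for Gapdh was 0.826 to 1.13 and 0.709 to 0.764. A male pattern of sex-linked genes was seen in 0 of these 6 arrays, in 2 of the 3 resting WT arrays and in 2 of the 3 stimulated Gli2R Tg arrays. Of 13 defining CD4 T cell markers 11 were measured and 0 were listed at 0 in any array. Their summed intensity was 84708 to 114733 in Gli2A Tg and 122902 to 132511 in Gli2R Tg arrays, groups that did not overlap, with Gli2A Tg lower. Of the 11 markers 10 had a negative difference, with a median of -0.43, and 1 was called, Cd5 (-0.85). Cd4 itself averaged 11.28 in Gli2A Tg and 11.39 in Gli2R Tg arrays and Cd3e 13.36 and 13.29, well above 7.06, the median level of all genes, in both groups.

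Ptch1, the Hedgehog receptor, had the smallest adjusted p of all genes. Its level was 13.59, 13.60 and 13.28 in Gli2A Tg replicates 1 to 3 and 10.60, 10.26 and 10.34 in Gli2R Tg replicates 1 to 3. All Gli2A Tg arrays lay well above all Gli2R Tg arrays, and the 3 arrays of each group lay close together. The difference was 3.09 ± 0.16 (SE, n = 3 and 3), an 8.51-fold higher level in Gli2A Tg (adjusted p = 1.05e-07, limma). Of its 2 dimmer probe sets one gave 2.33 and the other, with group means of 5.36 and 5.26, gave 0.10.

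The rest of the Hedgehog list did not follow Ptch1. Of 27 measured ligands, receptors and transducers 1 was called higher and 0 lower, and the list's median difference was 0.02, against 0.00 over all genes tested. Over all genes 2.4% were called, 1.57% higher and 0.83% lower. Smo, the transducer that Ptch1 restrains, had 7.47, 7.41 and 8.41 in Gli2A Tg and 7.05, 6.60 and 7.23 in Gli2R Tg arrays, a difference of 0.80 ± 0.26 that did not pass (adjusted p = 0.124, limma). Gli1, itself a factor often used as a readout of the pathway, stood at 5.56, 6.41 and 6.49 against 6.23, 6.19 and 6.85, groups that overlapped.

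Gli2 itself gave levels of 5.31, 6.04 and 4.80 in Gli2A Tg and 5.32, 4.23 and 5.42 in Gli2R Tg arrays. Its 2 probe sets gave differences of 0.40 and -0.08. Since the transgenes' extent within Gli2 is not given in the labels, these probe sets check nothing about the genotypes. Among 21 textbook Gli targets, a list that also holds Ptch1, Gli1 and the cytokine gene Il4, 1 was called and the median difference was 0.00. Of the 21, 11 had a positive and 10 a negative difference. Rab34, a small GTPase of that list, differed by 0.70 ± 0.21 (adjusted p = 0.096, limma), and the cyclin gene Ccnd1 by 0.94 ± 0.34 (adjusted p = 0.162). Sfrp1 had the lowest value of the list, -1.65 (adjusted p = 0.291, limma), and was not called either.

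Promoter sequence is shown for 5 genes on which the results turn: Ptch1 as the leading pathway gene, Rsad2 and Ifit1 for the interferon genes, Hspa1b for the heat shock pair and Dusp1 for the early response genes. Each is the stretch of 250 bases before the annotated start of transcription, from RefSeq (mouse build GRCm38.p6), 5′ to 3′ on the gene's strand, and it holds no base transcribed from that start. Other starts of these genes were not searched. Capitals mark matches to the motifs named after them.
Ptch1, chr13:63565736-63565985, minus strand: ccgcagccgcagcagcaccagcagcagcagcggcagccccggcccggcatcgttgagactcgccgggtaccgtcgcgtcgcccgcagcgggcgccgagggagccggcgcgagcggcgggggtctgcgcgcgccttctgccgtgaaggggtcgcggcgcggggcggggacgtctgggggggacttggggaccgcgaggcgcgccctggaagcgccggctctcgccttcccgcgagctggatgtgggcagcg
Rsad2, chr12:26456453-26456702, minus strand: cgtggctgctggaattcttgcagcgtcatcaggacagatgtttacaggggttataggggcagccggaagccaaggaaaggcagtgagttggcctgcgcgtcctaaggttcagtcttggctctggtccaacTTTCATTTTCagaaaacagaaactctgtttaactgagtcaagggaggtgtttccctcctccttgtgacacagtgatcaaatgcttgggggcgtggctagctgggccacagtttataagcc
Ifit1, chr19:34640639-34640888, plus strand: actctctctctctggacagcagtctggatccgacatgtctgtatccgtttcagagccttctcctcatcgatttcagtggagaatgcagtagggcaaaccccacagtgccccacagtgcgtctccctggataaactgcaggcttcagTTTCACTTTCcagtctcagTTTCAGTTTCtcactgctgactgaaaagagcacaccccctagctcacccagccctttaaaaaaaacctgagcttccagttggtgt
Hspa1b, chr17:34959239-34959488, minus strand: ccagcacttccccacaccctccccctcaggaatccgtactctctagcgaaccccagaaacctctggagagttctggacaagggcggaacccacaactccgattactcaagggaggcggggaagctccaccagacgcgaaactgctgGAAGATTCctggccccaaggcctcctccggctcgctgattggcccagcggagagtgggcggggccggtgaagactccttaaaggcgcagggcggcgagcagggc
Dusp1, chr17:26508473-26508722, minus strand: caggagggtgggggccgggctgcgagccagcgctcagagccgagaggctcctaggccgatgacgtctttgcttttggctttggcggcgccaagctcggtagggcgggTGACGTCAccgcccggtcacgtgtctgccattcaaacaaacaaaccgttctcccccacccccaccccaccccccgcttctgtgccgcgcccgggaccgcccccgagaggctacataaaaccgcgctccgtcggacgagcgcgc

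Motifs were searched on both strands in this window for the 14452 measured genes with a promoter in the table. The core of the interferon-stimulated response element, GAAA and GAAA spaced by 2 bases of any kind, was found in Rsad2 from 120 to 111 bases before the start and in Ifit1 at 104 to 95 and 85 to 76 bases before it. It was present in 3.13% of all promoters, in 5.65% of the 230 called higher, in 1.67% of the 120 called lower and in 11 of 24 promoters of the interferon response list. The head-to-head heat shock pair GAANNTTC, found in Hspa1b 104 to 97 bases before the start, was in 6.62% of all promoters and in 3.48% and 5.83% of those called higher and lower. The cAMP response element TGACGTCA, found in Dusp1 143 to 136 bases before the start, was in 2.5% of all promoters, 0.87% of the higher and 5.83% of the lower. Of 28 promoters of the early response list 1 held it (3.57%), that of Dusp1 itself. The Gli consensus GACCACCCA was in 0.215% of all promoters and in 1 promoter called higher, that of Rab31, and was not among the letters of the Ptch1 window. A match is a description of the letters and says nothing about binding.

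Of 18193 genes 436 were called, 285 higher and 151 lower in Gli2A Tg. Of these, 250 differed by more than 2-fold and 44 by more than 4-fold. In all 436 the 3 arrays of one group lay wholly above or below those of the other, as they did in 20.3% of all genes, and an unadjusted p under 0.05 was reached by 17% of all genes. The count depended on the arrays: it was 178 without Gli2A Tg replicate 3, 154 without Gli2R Tg replicate 2 and 272 without Gli2R Tg replicate 1. With the variance taken from these 6 arrays alone it was 51. With the mean levels of the myeloid and the erythroid marker lists as covariates, an alternative chosen after seeing the data, 2 genes were called, Ptch1 (3.28, adjusted p = 0.00347, limma) and Prr29 (adjusted p = 0.022). In that fit the SE of the 81 called genes named by the rule was 2.05 times as large in the median, all 81 kept their sign, and 71 were at least 0.5 times as large. Pmepa1 had 3.06 (adjusted p = 0.0528, limma), Sox4 2.49 (adjusted p = 0.0769), Hspa1b -4.29 (adjusted p = 0.223), Dapl1 -2.16 (adjusted p = 0.273), Rsad2 2.66 (adjusted p = 0.369) and Slc25a37 2.34 (adjusted p = 0.67). Other called genes shrank more in some alternative. The lowest value was 0.53 for Ifitm3, 0.55 for Csf2rb and 0.47 for Irf8, from 1.67, 1.49 and 1.02. Their adjusted p with marker covariates was 0.999, 0.981 and 0.999 (limma). Among the 81, Ptch1 and Prr29 alone were called under every alternative run on them; the adjusted p of Ptch1 ranged from 1.43e-11 to 0.00905 and that of Prr29 from 3.07e-07 to 0.022.

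**Figure D1:**
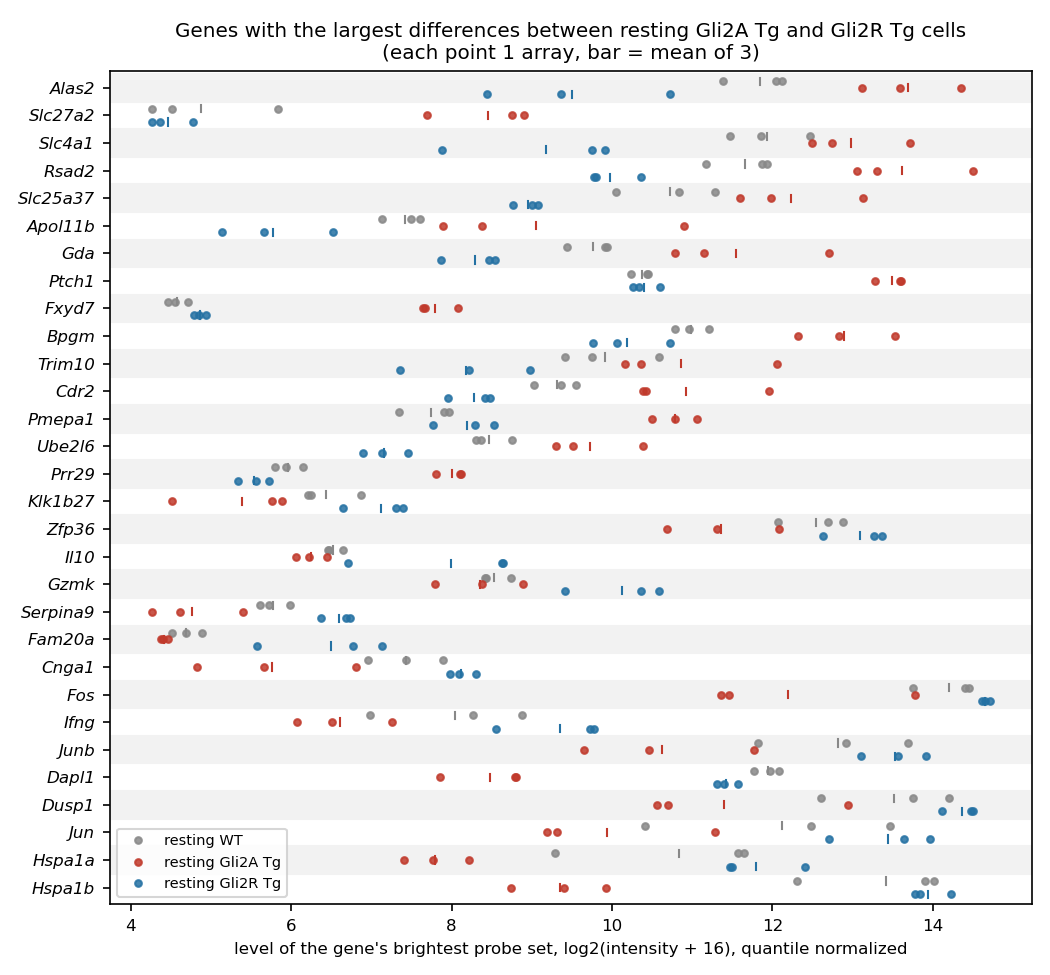
Levels, as log2 of the intensity plus 16 (horizontal axis), of the 15 called genes with the largest and the 15 with the smallest difference between resting Gli2A Tg and Gli2R Tg cells. Each point is 1 array, bars are means of 3, and resting WT arrays are in grey; Ptch1 has tight groups 3.09 apart, while Fos and Jun have 1 Gli2A Tg array above the other two.

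Prr29, a gene whose product has a proline-rich stretch, gave 8.12, 7.80 and 8.10 in Gli2A Tg and 5.56, 5.34 and 5.72 in Gli2R Tg arrays. The groups were far apart beside their own spread, with a difference of 2.47 ± 0.16 (adjusted p = 1.55e-06, limma). Slc27a2, a fatty acid transport protein with acyl-CoA synthetase activity, stood at 8.90, 8.76 and 7.69 against 4.78, 4.36 and 4.26. Gli2R Tg arrays were near the floor, so the difference of 3.98 ± 0.41 (adjusted p = 0.000156) depends on the added constant. The same holds for Fxyd7, of the family that tunes the sodium pump, which was 2.94 ± 0.38 higher (adjusted p = 0.00105) with Gli2R Tg levels of 4.93, 4.79 and 4.85.

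Among the other genes with large rises, Gda, the enzyme guanine deaminase, was higher by 3.25 ± 0.49 (adjusted p = 0.00289, limma) and Cdr2, an intracellular coiled-coil protein, by 2.63 ± 0.32 (adjusted p = 0.000707). Both calls were lost when the 6 arrays were fitted alone. Apol11b, of the apolipoprotein L family, reached 7.89, 8.38 and 10.89 in Gli2A Tg and 6.52, 5.67 and 5.14 in Gli2R Tg arrays. Its difference of 3.28 ± 0.79 (adjusted p = 0.044) did not pass without Gli2A Tg replicate 2 or 3 or without any 1 of the Gli2R Tg replicates.

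Genes of transforming growth factor beta (TGF-beta) signalling had 3 called higher and 1 lower of 31 measured, with a median of -0.09. Pmepa1, a membrane protein that TGF-beta induces and that dampens its signal, had 11.06, 10.79 and 10.49 in Gli2A Tg and 8.53, 8.30 and 7.76 in Gli2R Tg arrays. No array of one group came near the other, and the level was 5.99-fold higher in Gli2A Tg (2.58 ± 0.21, adjusted p = 2e-05, limma), and all 3 of its probe sets were positive. Tgfb3, a TGF-beta ligand, stood at 8.25, 8.60 and 7.69 against 6.47, 5.92 and 5.40 (2.25 ± 0.35, adjusted p = 0.00376).

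Bmpr2, the type II receptor for bone morphogenetic proteins, was 1.05 ± 0.18 higher (adjusted p = 0.00779, limma), though 1 of its 3 probe sets gave -0.32. Smad7, an inhibitor of the receptors, was 1.20 lower on the log2 scale in Gli2A Tg (-1.20 ± 0.29, adjusted p = 0.041), a call lost without any 1 of 4 arrays, Gli2A Tg replicate 3 and each Gli2R Tg replicate. The receptors Tgfbr1 and Tgfbr2 differed by 0.32 and -0.15 and the transducers Smad2, Smad3 and Smad4 by -0.40, 0.40 and -0.24, none of them called. The 3 higher calls stood in every fit that left out 1 array.

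Interferon response genes had 7 called higher and 0 lower of 31 measured, with a median of 0.31. Rsad2, the antiviral enzyme viperin, whose promoter is shown above, had 13.06, 13.31 and 14.50 in Gli2A Tg and 10.36, 9.77 and 9.80 in Gli2R Tg arrays. The groups were far apart, with Gli2A Tg replicate 3 the highest, a 12.5-fold difference (3.64 ± 0.30, adjusted p = 2e-05, limma). Its 3 probe sets gave 3.05 to 3.67.

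Ifitm3, a membrane protein that blocks viral entry, had 13.19, 13.18 and 13.32 against 11.49, 11.36 and 11.84 (1.67 ± 0.25, adjusted p = 0.00289, limma). The lowest Ifitm3 difference in any alternative was 0.53. Isg20, an exonuclease, was higher by 1.59 ± 0.27 (adjusted p = 0.00568), and the oligoadenylate synthetase family members Oasl2 and Oas3 by 1.39 ± 0.22 and 1.33 ± 0.26 (adjusted p = 0.0043 and 0.014). Ifit1, which binds viral RNA, had 10.84, 10.39 and 10.95 against 9.56, 9.64 and 9.33 (1.21 ± 0.25, adjusted p = 0.0202), and Irf7, a regulator of interferon genes, differed by 0.73 ± 0.17 (adjusted p = 0.0425). The Ifit1 call was lost without Gli2A Tg replicate 3 or any Gli2R Tg replicate, and the Irf7 call without Gli2A Tg replicate 2 too.

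The response was uneven within the list. The transcription factors Stat2 and Irf9 differed by -0.02 and 0.15, Mx1 by 0.64 and Bst2 by -0.04, and Irf1 by -0.44, none called. The list's higher calls fell to 4 without Gli2A Tg replicate 3 or Gli2R Tg replicate 1. Ube2l6, the conjugating enzyme for the ubiquitin-like protein ISG15, was not on the list and stood at 9.51, 9.30 and 10.38 in Gli2A Tg against 7.13, 6.89 and 7.45 in Gli2R Tg arrays (2.57 ± 0.27, adjusted p = 0.000174, limma).

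The largest falls were those of the inducible heat shock protein 70 genes. Hspa1b had 9.92, 9.40 and 8.74 in Gli2A Tg and 13.84, 14.23 and 13.77 in Gli2R Tg arrays. Every Gli2A Tg array lay far below the lowest Gli2R Tg array. The difference was -4.59 ± 0.44, a 24.1-fold lower level (adjusted p = 6.71e-05, limma), with 3 of 3 probe sets between -5.67 and -4.59. In Hspa1a the difference was -3.99 ± 0.55 (adjusted p = 0.00182). The pair is near identical in sequence, so their probe sets may share signal.

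Of 25 measured heat shock and chaperone genes 0 were called higher and 2 lower, and the median was 0.14. The constitutive Hspa8 differed by 0.22, Hsp90aa1 by 0.39, Hsph1 by 0.32, the co-chaperone Dnajb1 by -0.22 and the small heat shock protein Hspb1 by -0.26, none called. The pair stayed called in every fit that left out 1 array, and WT replicate 3, at 12.31 for Hspa1b where the other WT arrays had 14.02 and 13.91, lay between the transgenic groups.

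Of 36 measured factors that antigen receptor signals induce within minutes to hours, 10 were called lower in Gli2A Tg, 2 were called higher and 24 were not called. The median was -0.69. Jun, a subunit of the AP-1 transcription factor, had 11.28, 9.19 and 9.32 in Gli2A Tg and 13.64, 13.97 and 12.70 in Gli2R Tg arrays (-3.51 ± 0.71, adjusted p = 0.018, limma). Its partner Fos had 13.78, 11.36 and 11.46 against 14.65, 14.71 and 14.61 (-2.46 ± 0.46, adjusted p = 0.0122). In both genes Gli2A Tg replicate 1 lay above the other Gli2A Tg arrays and still below every Gli2R Tg array.

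Dusp1, a phosphatase that switches off MAP kinases, whose promoter is shown above, had 12.94, 10.70 and 10.56 against 14.50, 14.47 and 14.11 (-2.96 ± 0.50, adjusted p = 0.00609, limma). The AP-1 gene Junb had a difference of -2.90 ± 0.49 (adjusted p = 0.00573), and Zfp36, which destabilizes cytokine mRNA, had a difference of -1.73 ± 0.32 (adjusted p = 0.0107). Dusp2, Ier2 and Cd69, the last an early activation antigen, differed by -1.66, -1.59 and -1.62, Fosb by -1.31 and Spry1, an inhibitor of receptor tyrosine kinase signals, by -1.18, all called. The higher ones were Irf8 (1.02) and Spred1 (0.69).

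The call was not shared by all early genes. Egr1, Egr2 and Egr3 differed by -0.54, -0.71 and -0.22, Nr4a1 by -0.67, Nr4a3 by 0.09 and Myc by -0.10, none called. The count of lower calls was 3 without Gli2A Tg replicate 3 or without Gli2R Tg replicate 2, 5 without Gli2R Tg replicate 1 and 15 without Gli2R Tg replicate 3. The Jun and Fos calls were among those lost without Gli2A Tg replicate 3, while those of Dusp1 and Junb stood in every fit that left out 1 array. Of 18 NF-kB genes 0 were called by limma; at an unadjusted p under 0.05, 1 was higher and 8 were lower, against 9.19% and 7.78% of all genes.

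**Figure D2:**
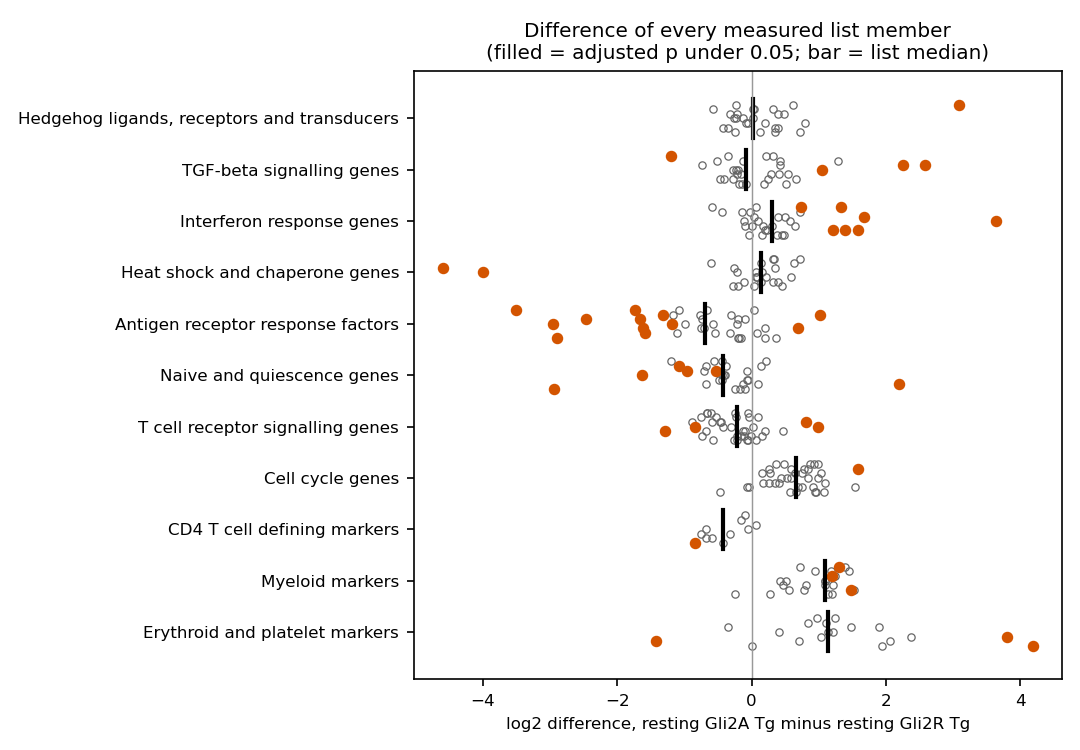
Log2 difference between resting Gli2A Tg and resting Gli2R Tg cells (horizontal axis) of every measured gene of 11 lists. Filled points passed the test and the bar is the list's median; the early response factors reach to -3.51 with a median of -0.69, and 2 heat shock genes stand far to the left of a list with a median of 0.14.

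Naive and quiescence genes had 5 called lower and 1 higher of 28 measured, with a median of -0.43. Dapl1, a gene on the list for its level in naive T cells, had 8.80, 8.80 and 7.85 in Gli2A Tg and 11.31, 11.40 and 11.57 in Gli2R Tg arrays (-2.94 ± 0.27, adjusted p = 6.71e-05, limma). Igfbp4, an insulin-like growth factor binding protein, had 12.54, 12.90 and 12.03 against 14.16, 14.11 and 14.11 (-1.63 ± 0.25, adjusted p = 0.00309), and 6 of 6 probe sets were negative. Neither pair of groups overlapped, which was so for every called gene.

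Klf2, a transcription factor that keeps T cells quiescent and recirculating, differed by -1.08 ± 0.21 (adjusted p = 0.014, limma) and Ccr7, the chemokine receptor for lymph node entry, by -0.97 ± 0.22 (adjusted p = 0.0342). The smallest of the 5 falls was that of Il7r, the survival cytokine receptor, at -0.53 ± 0.13 (adjusted p = 0.0466). Lower calls numbered 2 without Gli2A Tg replicate 3 or Gli2R Tg replicate 2 and 3 without Gli2R Tg replicate 1. S1pr1, needed to leave lymphoid tissue, Foxo1 and Lef1 differed by -0.70, -0.13 and -0.68 and were not called.

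Sox4, a transcription factor of early lymphocyte development that TGF-beta also induces, was the higher one on this list. It had 13.18, 12.96 and 12.64 in Gli2A Tg and 10.94, 10.57 and 10.67 in Gli2R Tg arrays, a 4.59-fold higher level (2.20 ± 0.18, adjusted p = 2e-05, limma). Of its 8 probe sets 7 were positive. The call stood in every fit that left out 1 array.

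Of 38 T cell receptor signalling genes 2 were called higher and 2 lower, with a median of -0.22. The negative regulators Cblb, an E3 ligase, and Cd5, a surface receptor, differed by -1.28 ± 0.32 and -0.85 ± 0.16 (adjusted p = 0.0495 and 0.011, limma). The other 2 Cblb probe sets gave 0.20 and 0.31, and its call held in 4 of 19 alternatives, so its direction is not settled. Sla2, an adaptor that dampens receptor signals, and Sos1, a Ras exchange factor, were higher by 0.99 ± 0.21 and 0.81 ± 0.17 (adjusted p = 0.0211 and 0.0229), though 2 of the 5 Sos1 probe sets were negative, down to -0.35. The higher calls were both lost without Gli2A Tg replicate 2 or Gli2R Tg replicate 2 or 3, and 1 was left in each of the other 3 fits that left out an array. Lower calls numbered 5 without Gli2A Tg replicate 1 and 1 without Gli2A Tg replicate 3 or Gli2R Tg replicate 1, and without Gli2R Tg replicate 2 limma called 0 of the 38. Zap70 differed by -0.68, Cd28 by -0.75, Cd3e by 0.07 and Cd4 by -0.10, none called.

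Among cytokine genes that mark helper subsets, Ifng, the Th1 cytokine, had 6.07, 6.51 and 7.25 in Gli2A Tg and 9.72, 9.77 and 8.55 in Gli2R Tg arrays (-2.74 ± 0.47, adjusted p = 0.00685, limma). Tnf differed by -1.35 ± 0.30 (adjusted p = 0.0264) and the chemokine receptor Cxcr3 by -0.90 ± 0.22 (adjusted p = 0.0468), while Hlx, a Th1 transcription factor, was higher by 1.50 ± 0.35 (adjusted p = 0.0385), with Gli2R Tg replicates 2 and 3 near the floor. In all, 3 of 21 Th1 genes were called lower and 1 higher, with 1 lower call left without Gli2A Tg replicate 2 or 3 or Gli2R Tg replicate 1 or 2. The Hlx call was lost in 5 of the 6 fits that left out an array, all but the one without Gli2R Tg replicate 1.

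Il10, an inhibitory cytokine that stands on the Th2 and regulatory T cell lists, had 6.45, 6.22 and 6.06 against 8.64, 8.63 and 6.71 (-1.75 ± 0.43, adjusted p = 0.0494, limma). Gli2R Tg replicates 1 and 2 carried this gap, and replicate 3 was just above Gli2A Tg. The same 2 arrays were high in Il21, at 9.49 and 9.71 where replicate 3 had 6.41, and its difference of -2.46 ± 0.66 did not pass (adjusted p = 0.0648). Il4 had 8.14, 7.93 and 7.69 in Gli2A Tg and 7.26, 8.04 and 7.56 in Gli2R Tg arrays, overlapping groups that differed by 0.30 ± 0.37 (adjusted p = 0.761).

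Of 21 Th2 genes 2 were called lower, Junb and Il10, of 20 Th17 and follicular helper genes 0, and of 22 regulatory T cell genes 3, Il10, the co-stimulatory receptor Tnfrsf18 (-0.86) and the actin-capping Capg (-0.84). The Il10 call held in 6 of 18 alternatives. The Th2 list kept 1 lower call without Gli2A Tg replicate 1, 2 or 3 or Gli2R Tg replicate 1 or 2. The median over the regulatory list was -0.16, and the count was 0 without Gli2A Tg replicate 3 or Gli2R Tg replicate 2 and 6 without Gli2R Tg replicate 3. Of 29 effector and memory genes 1 was called, Cxcr3, a call that held in 5 of 19 alternatives. Of the Th17 and follicular helper genes 2 were higher and 6 lower at an unadjusted p under 0.05, against 9.19% and 7.78% of all genes. Limma called 0 of them, but 6 lower without Gli2R Tg replicate 3.

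Among 15 granzyme and cytotoxic genes Gzmm, a serine protease, had 8.99, 8.44 and 9.33 in Gli2A Tg and 5.80, 6.73 and 7.03 in Gli2R Tg arrays (2.40 ± 0.34, adjusted p = 0.00212, limma), while Gzmk had 8.37, 7.80 and 8.89 against 10.36, 10.58 and 9.41 (-1.76 ± 0.36, adjusted p = 0.0197). These proteases changed in opposite directions, and as in every called gene the groups did not overlap. The Gzmk call was lost without Gli2A Tg replicate 2 or Gli2R Tg replicate 1 or 2. Ptgir, the prostacyclin receptor, had 9.76, 9.73 and 8.92 against 7.17, 7.21 and 7.52 (2.16 ± 0.26, adjusted p = 0.000701), and the ion channel P2rx4 differed by 0.58 ± 0.14 (adjusted p = 0.0404), 2 of 19 prostanoid and purine receptor genes. The P2rx4 call held in 7 of 19 alternatives.

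Cd160, a receptor for the herpesvirus entry mediator, was higher by 1.14 ± 0.21 (adjusted p = 0.0102, limma), though 1 of its 4 probe sets was negative. Of 22 co-stimulatory and inhibitory receptors 1 was called higher and 2 lower, of 23 chemokine receptor and egress genes 0 and 3, with Gpr183 at -0.80, and of 30 cytokine receptors 0 and 2, with Il15ra at -0.70. Without Gli2R Tg replicate 2 none of the calls of these 3 lists remained, Cd160 included. Co-stimulatory and inhibitory receptors had 6 lower calls without Gli2R Tg replicate 3, 4 without Gli2A Tg replicate 2 and 1 without Gli2A Tg replicate 3 or Gli2R Tg replicate 1. The chemokine list had none without Gli2A Tg replicate 3 or Gli2R Tg replicate 1, and the cytokine receptors had no lower call without Gli2A Tg replicate 2 or 3 or Gli2R Tg replicate 1. Further genes among the 15 largest falls were Cnga1, a cyclic nucleotide-gated channel (-2.36 ± 0.36, adjusted p = 0.0033), Fam20a, a secretory pathway pseudokinase (-2.08 ± 0.27, adjusted p = 0.00119), Serpina9, a protease inhibitor of germinal centre B cells (-1.84), and the kallikrein Klk1b27 (-1.73). Fam20a lay at the floor in Gli2A Tg.

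Of 37 cell cycle genes 1 was called higher and 0 lower, yet 34 had a positive difference and the median was 0.67. At an unadjusted p under 0.05, 23 were higher and 1 lower, against 9.19% and 7.78% of all genes. Rrm2, the small subunit of ribonucleotide reductase, had 12.32, 12.12 and 13.76 in Gli2A Tg and 11.26, 10.70 and 11.49 in Gli2R Tg arrays (1.58 ± 0.37, adjusted p = 0.037, limma). Mki67 had 9.42, 10.17 and 12.36 against 9.52, 9.05 and 8.78, so its difference of 1.54 came mainly from Gli2A Tg replicate 3. Without that array the list's median was 0.32 and limma called 0 of 37, as it did without Gli2R Tg replicate 1 or 2, while it called 5 without Gli2A Tg replicate 1.

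By limma 0 genes were called of 33 for ribosome biogenesis, 19 for glycolysis, 26 for oxidative phosphorylation, 21 for the Notch pathway and 20 apoptosis regulators. Their counts at an unadjusted p under 0.05, higher and lower, were 4 and 0, 1 and 4, 0 and 2, 2 and 1, and 2 and 1. Over all genes the shares were 9.19% and 7.78%. The medians were 0.13, -0.12, 0.04, 0.07 and -0.03. Bcl2l1, which protects from apoptosis, differed by 0.82 (adjusted p = 0.0905, limma) and the Notch ligand Dll4 by 0.79 (adjusted p = 0.107).

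Among marker lists of cells other than CD4 T cells, the myeloid list separated the groups most fully. Myeloid markers had 24 of 25 positive differences with a median of 1.10, and in 23 of 25 the Gli2A Tg arrays lay wholly above the Gli2R Tg arrays, against 11% of all genes. Their summed intensity was 191645 to 202250 in Gli2A Tg, 87053 to 108822 in Gli2R Tg and 104935 to 162477 in WT arrays. Adgre1, the macrophage antigen F4/80, had 11.86, 12.27 and 12.16 against 10.66, 10.62 and 10.56 (1.48 ± 0.28, adjusted p = 0.0112, limma), and Mpeg1 (1.30) and Fcer1g (1.19) were also called. The list's calls numbered 1 without Gli2A Tg replicate 3 or Gli2R Tg replicate 2.

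Erythroid and platelet markers had 2 called higher and 1 lower of 19 measured, with a median of 1.13. Alas2, the first enzyme of heme synthesis in red cell precursors, had 13.12, 13.60 and 14.35 in Gli2A Tg and 10.72, 8.44 and 9.36 in Gli2R Tg arrays (4.18 ± 0.59, adjusted p = 0.00194, limma). Slc4a1, the red cell anion exchanger, had 12.50, 12.74 and 13.72 against 9.75, 7.88 and 9.91 (3.80 ± 0.86, adjusted p = 0.0322), a call lost without Gli2A Tg replicate 2 or 3 or Gli2R Tg replicate 1 or 2. Hbb-b2 was called lower at -1.42, but its other probe set gave 2.95, so its direction is not settled. Higher calls numbered 4 without Gli2R Tg replicate 3 and 1 without Gli2A Tg replicate 3 or Gli2R Tg replicate 1 or 2. The summed intensity was 59664 to 149825 in Gli2A Tg, with replicate 3 highest, 22993 to 44402 in Gli2R Tg and 67927 to 91035 in WT arrays.

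Some red cell genes outside that list were higher too. Slc25a37, the mitochondrial iron importer mitoferrin, had 11.60, 11.98 and 13.13 in Gli2A Tg and 9.07, 9.00 and 8.76 in Gli2R Tg arrays (3.29 ± 0.33, adjusted p = 0.000131, limma). Bpgm, which makes the red cell's regulator of oxygen release, was higher by 2.71 ± 0.36 (adjusted p = 0.00119), and Trim10, a gene of terminal erythroid development, by 2.68 ± 0.63 (adjusted p = 0.0385). The Trim10 call was lost without Gli2A Tg replicate 3 or Gli2R Tg replicate 1 or 2.

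Granulocyte, mast cell and basophil markers had a median of 0.78 and a summed intensity of 6533 to 13502 in Gli2A Tg against 4317 to 5220 in Gli2R Tg arrays; Csf2rb, a cytokine receptor chain, was the only one called of 18 (1.49 ± 0.20, adjusted p = 0.00164, limma). B cell and plasma cell markers summed to 73492 to 117341 against 47912 to 65774, with a median difference of 0.13 and 0 of 19 called. CD8 T and NK cell markers summed to 10608 to 12158 against 12531 to 15926, with 1 of 16 called, Gzmk. Exocrine pancreas markers summed to 7299 to 32502 against 2428 to 68432, so the groups overlapped widely, and stroma and endothelium markers to 1327 to 1806 against 1504 to 1844, with 0 of 13 and 0 of 14 called. No marker of these lists was listed at 0 in any array. The part of these cells in the differences of the T cell, interferon and early response genes was not tested. In the fit with marker covariates given above, calls other than Ptch1 and Prr29 were lost while all 81 called named genes kept their sign. That fit cannot separate such a part from genotype, since neither covariate overlapped between the groups. The myeloid mean was 11.92 to 11.96 in Gli2A Tg and 10.77 to 11.15 in Gli2R Tg arrays. The erythroid mean was 10.20 to 10.79 and 8.80 to 9.50. Markers that build the covariates, such as Adgre1 and Alas2, are among the 81, so a kept sign does not set the others apart.

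**Figure D3:**
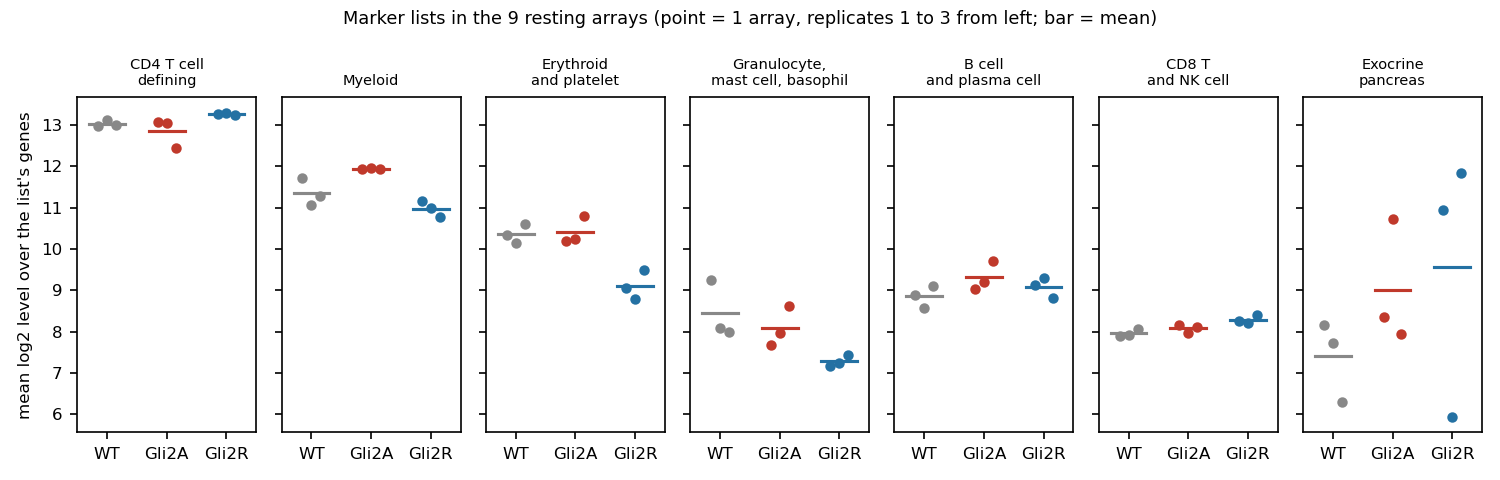
Mean log2 level over each marker list's genes (vertical axis) in the 9 resting arrays, by genotype. Each point is 1 array, with replicates 1 to 3 from left, and bars are means of 3. The myeloid, erythroid and granulocyte lists are higher in Gli2A Tg than in Gli2R Tg with no overlap. The CD4 T cell list and the CD8 T and NK list are lower with no overlap. The B cell list overlaps, and the pancreas list scatters within both groups.

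Resting WT arrays give the level without a transgene. These comparisons share arrays with the one above, so their values are set side by side only. Gli2A Tg against WT gave 100 called genes, 75 higher and 25 lower, which is 0.55% of all genes (0.412% and 0.137%). Gli2R Tg against WT gave 0 by limma, with 1869 genes, or 10.3%, at an unadjusted p under 0.05. For Ptch1 the differences from WT were 3.11 in Gli2A Tg and 0.02 in Gli2R Tg, for Pmepa1 3.04 and 0.46, for Prr29 2.05 and -0.42, for Dapl1 -3.46 and -0.52 and for Hspa1b -4.06 and 0.53. In each of these genes the Gli2A Tg value was called and the Gli2R Tg value was not.

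Other genes lay on both sides of WT. Rsad2 differed from WT by 1.96 in Gli2A Tg and by -1.68 in Gli2R Tg, Slc25a37 by 1.51 and -1.78, Alas2 by 1.84 and -2.34 and Jun by -2.19 and 1.32; only the first of these 8 values was called. Cell cycle genes had a median of -0.10 in Gli2A Tg against WT and -0.78 in Gli2R Tg against WT, erythroid and platelet markers 0.03 and -1.11, and myeloid markers 0.61 and -0.41. The early response factors had -0.28 and 0.39, the interferon list 0.38 and 0.05, and the naive list -0.14 and 0.15. WT held 2 arrays with a male pattern, replicates 1 and 2, and the resting transgenic groups 0. WT replicate 3, the one without that pattern, was lower than the others in Jun (10.41 against 13.47 and 12.49). It was also lower in Hspa1b, as given above. The part of the male pattern in the differences from WT was not tested.

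The stimulated arrays hold the same comparison in samples that share no array with the resting ones. Their test still took its spread from all 18 arrays, the resting ones included. With stimulated arrays fitted alone, all or nearly all of the stimulated calls were lost, as given in the last section. There 42 genes were called, 36 higher and 6 lower, which is 0.231% of all genes (0.198% and 0.033%), and 2 of the 3 Gli2R Tg arrays had a male pattern against 0 of 3 Gli2A Tg arrays. Of the 436 genes called at rest 11 were called again in the same direction and 0 in the opposite one, 2.52% of the resting calls and 26.2% of the stimulated ones. The sign was the same for 302 of the 436 (69.3%) and for 54.5% of all genes, and r across genes, which are not independent replicates, was 0.20. The median size of the difference among the 436 was 1.09 at rest, where they were chosen, and 0.23 after stimulation.

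Among the shared genes Ptch1 stood at 12.05, 12.27 and 12.48 in stimulated Gli2A Tg and 10.08, 10.23 and 9.96 in stimulated Gli2R Tg arrays (2.18, adjusted p = 1.34e-05, limma). Tgfb3 differed by 2.45 and the organic anion transporter Slco4a1 by 2.49 after stimulation, where they had differed by 2.25 and 2.32 at rest. Dapl1 was again lower, at 5.76, 5.47 and 5.02 against 7.87, 7.16 and 7.21 (adjusted p = 0.00751). The others were AA467197, Baiap3, Cd200r4, Ckb, Dennd5a, Scd2 and Spsb1, all higher in Gli2A Tg and named after their values were seen.

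**Figure D4:**
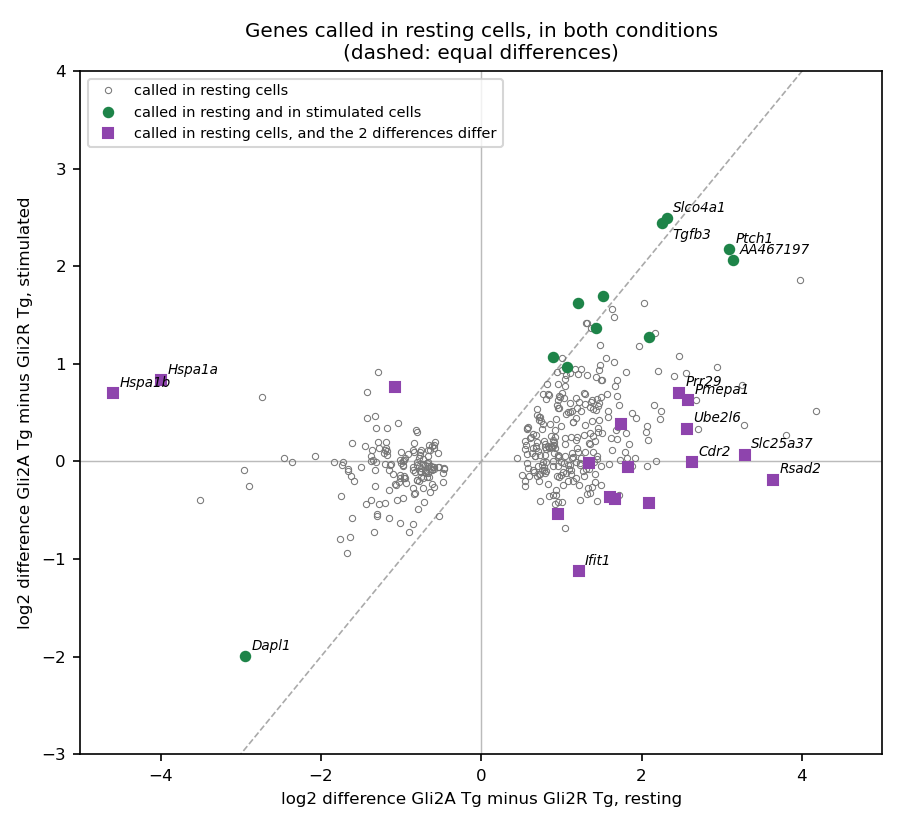
Log2 difference between Gli2A Tg and Gli2R Tg in resting cells (horizontal axis) and in stimulated cells (vertical axis) of the 436 genes called at rest, 1 point per gene. Green points were called in both conditions, purple squares had a called change, and the dashed line marks equal differences; Tgfb3 and Slco4a1 stand near it, while Hspa1b and Rsad2 lie at 0.70 and -0.19 after stimulation.

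Whether the difference itself changed with stimulation was tested as an interaction. It was called for 20 genes, 0.11% of all, with 6 higher and 14 lower after stimulation (0.033% and 0.077%), a split that was 9 and 9 under median centring. Hspa1b went from -4.59 at rest to 0.70 (adjusted p of the change = 0.00438, limma), with stimulated levels of 10.93, 10.80 and 10.02 in Gli2A Tg and 10.23, 9.85 and 9.57 in Gli2R Tg arrays. Rsad2 went from 3.64 to -0.19 (adjusted p = 0.00438), with all 6 stimulated arrays between 11.07 and 11.42. Pmepa1 went from 2.58 to 0.63 (adjusted p = 0.0186). Each of these separations was thus smaller in the stimulated arrays.

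Il4, the cytokine that defines Th2 cells, ran the other way. It was 11.54, 12.33 and 11.28 in stimulated Gli2A Tg and 7.91, 8.81 and 7.33 in stimulated Gli2R Tg arrays, a difference of 3.70 (adjusted p = 0.000587, limma) where the resting groups had overlapped, and the change was called (3.40, adjusted p = 0.019). Csf2, a cytokine for myeloid cells, went from -1.34 to 1.73, neither called, with the change called (3.07, adjusted p = 0.0397). For Ptch1 the change of -0.91 did not pass (adjusted p = 0.138), nor did those of Jun (3.11, adjusted p = 0.27) and Fos (2.49, adjusted p = 0.176). In the early response list 0 of 36 were called after stimulation, with 0 higher and 2 lower at an unadjusted p under 0.05, where all genes had 5.47% and 3.69%.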

How the data were processed

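The values were probe set intensities as deposited, one array per sample, made from Affymetrix scans with the affy package (version not given) per the submitters' processing notes; each array was at a 2% trimmed mean of 500.  RNA was extracted and biotin-labelled per the labels' protocols. Of 45101 probe sets, the 34945 with 1 gene symbol were used; 932 had several, 9160 none and 64 were controls. Values were taken as log2(intensity + 16) and quantile normalized, and each gene was read from its brightest probe set. Group means of all 18 arrays were fitted with limma 3.58.1 (lmFit, eBayes) in R 4.3.3, with Benjamini-Hochberg adjustment within each comparison. Replicate numbers were not used in the reported fit.

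The members and the 34 gene lists (754 genes, 683 measured) were chosen with earlier results of these data known. Lists are described by counts and medians, with no test. Named genes were Ptch1, Gli1 and Gli2, the 15 largest and 15 smallest called differences without overlap (clone and predicted names left out), the called genes of each list and up to 4 of its largest differences, and for the stimulated comparison and the change between conditions the 5 largest and 5 smallest called. The fit was tested on simulated data. Promoters were matched by symbol to a RefSeq table (GRCm38.p6). Alternatives covered normalization, the added constant, a filter on low levels, the choice of probe set, the variance model, array weights, the arrays fitted, the replicate block and leaving out each array; marker covariates and the lists without each array were added after the data were seen.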

Additional observations from a re-analysis of the deposited data

Results flagged for a closer look

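In 20 genes the difference between Gli2A Tg and Gli2R Tg after stimulation was not the same as at rest, by limma's interaction test with Benjamini-Hochberg adjustment. Values are the stimulated minus the resting difference on the log2 scale. In the stimulated comparison 2 of 3 Gli2R Tg arrays had a male pattern, and its part in these values was not tested.

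The change was positive in 6 genes: the heat shock genes Hspa1b (5.29) and Hspa1a (4.83), the cytokine genes Il4 (3.40), Csf2 (3.07) and Ctf1 (1.84), and Kis2 (2.87). Hspa1b, Hspa1a and Ctf1 were called lower in Gli2A Tg at rest, while for Il4 the resting groups overlapped.

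It was negative in 14. Among interferon-linked genes these were Rsad2 (-3.83), Ifit1 (-2.34), Ube2l6 (-2.23) and Slfn8 (-1.50). Slc25a37, the mitochondrial iron importer, had -3.22, and the TGF-beta target Pmepa1 had -1.95. The lipid transport genes Apoc1 and Abca9 had -2.51 and -2.05 and the transporter gene Abcg3 had -1.89. The others were Cdr2 (-2.64), the surface proteoglycan Sdc3 (-1.97), Prr29 (-1.76), the tubulin gene Tubb2a (-1.36) and the membrane repair gene Myof (-1.36). All 14 were called higher in Gli2A Tg at rest.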

How the results depend on the processing

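The 436 resting calls came to 930 with log2(value+64), 1007 among genes above the median level, 884 with trend and robust variance, 159 when only the 9 resting arrays were fitted, 51 with the 6 arrays alone, 2 with marker covariates and 154 to 597 without 1 array. The 42 stimulated calls were 103, 121, 137, 1, 0 and 1 in those fits (0 by limma with the 6 arrays alone), 23 with probe sets averaged per gene, 132 with array weights and 19 to 71 without 1 array. The 20 genes whose difference changed were 78, 128 and 101 in the first 3 of those fits, 35 probe sets tested one by one, 34 with array weights, 12 from the compared arrays alone, 11 with marker covariates and 6 to 34 without 1 array. Median centring, the deposited scaling and log2(value+1) kept each total within 1.5 times, but under median centring the resting calls split into 211 higher and 84 lower, against 285 and 151. Same-numbered resting arrays correlated at 0.0406, -0.0577 and 0.0407 in their deviations, and differently numbered ones at -0.0831 to 0.0516. With 3 arrays a group this cannot show whether same-numbered arrays were handled together. With the replicate block 501, 47 and 17 genes were called. Of the 81 called named genes 80 kept their direction throughout. Hbb-b2 turned to 0.77 with the mean of its probe sets. With marker covariates Birc5 turned to -0.0752, Camp to -0.94, Cfp to -0.57, Cotl1 to 0.0145, Epx to -0.84, Prg2 to -0.0641 and Xcr1 to -0.29, none of them called at rest. These are the ones with an unadjusted limma p under 0.05 at rest. Genes above that p turned too, among them Hmox1 from 0.72 to -1.38. In all, 24 of 183 named genes took another sign in some alternative, 1 of them called at rest. The cause was not tested. Levels near the floor of 4 set a limit for genes such as Fxyd7, Slc27a2, Fam20a, Hlx and Gli2.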
